A study of Mus musculus with 12 samples.

Results

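Astrocytes secrete cytokines and chemokines that act on microglia, blood cells, vessels and neurons, and 10 such ligand genes were followed here: Ccl2, Ccl5, Cxcl1, Cxcl10, Cxcl12, Cxcl14, Il6, Il18, Il33 and Csf1. They were chosen by gene name, and all 10 were found among the 56791 gene names of the deposited expression table. Messenger RNA had been sequenced from astrocytes of the mouse hippocampus, sorted by fluorescence on ACSA-2, an astrocyte surface antigen. All animals were adult naive males with both copies of Tnfrsf1b floxed, the gene of TNF receptor 2 (TNFR2). The group labelled cKO also carries GfapcreERT2, a Cre recombinase driven by the Gfap promoter that becomes active with tamoxifen (GfapcreERT2:Tnfrsf1bfl/fl). The group labelled Ctrl has the floxed alleles without Cre (Tnfrsf1bfl/fl), so Cre and the targeting of Tnfrsf1b cannot be told apart by design. Each group holds 3 A numbers (A1, A2 and A8 in Ctrl; A4, A9 and A10 in cKO), and each A number has an S1 and an S2 library. The labels define neither letter, and S1 and S2 were averaged, so n is 3 units per group throughout and each ± is an SD over them; nothing in the labels says that the units are separate animals.

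Chemokines are small secreted proteins that attract cells through G protein-coupled receptors. Their genes fall into those kept on at rest, such as Cxcl12 and Cxcl14, and those switched on quickly by TNF or interferon, such as Ccl2, Cxcl1 and Cxcl10, much of it through the transcription factor NF-kB. TNFR2 is one of the receptors through which TNF reaches that factor. IL-18 and IL-33 belong to the interleukin-1 family, and CSF1 is a growth factor that keeps microglia alive.

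Recovered depth was 17311872 to 35323322 reads per library, and 21342 to 26668 genes were above 0. Astrocyte markers were abundant, with Apoe and Slc1a2 at the head of a list of 15 genes that summed to 6224 to 7726 FPKM in Ctrl and 7365 to 8594 FPKM in cKO; FPKM are fragments per kilobase of gene length and per 1000000 assigned fragments. Tnfrsf1b itself was listed at 0 in 9 of the 12 libraries. Its unit values were at most 0.0275 FPKM in Ctrl, while A4, labelled cKO, held 0.141 FPKM, so the ablated gene did not check the labels. Tnf was listed at 0 in every unit except A10 (0.275 FPKM), and Tnfrsf1a, the gene of the other TNF receptor, was at 9.82 ± 2.12 FPKM in Ctrl against 12.1 ± 2.13 FPKM in cKO.

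The promoters of 5 of the 10 genes are shown because they differ in the letters that NF-kB, AP-1 and interferon-driven factors are known to bind. They are the 250 bases before the annotated start (RefSeq, build GRCm38.p6, read 5′ to 3′ on the strand of the gene); 3 of them are inducible genes with A1 and A2 on top, and the last pair, Il33 and Csf1, had the lower values in cKO. Capitals mark matches to the NF-kB consensus, to the AP-1 site TGANTCA or to the interferon response core GAAANNGAAA, on either strand.
Cxcl1, chr5:90890995-90891244, plus strand: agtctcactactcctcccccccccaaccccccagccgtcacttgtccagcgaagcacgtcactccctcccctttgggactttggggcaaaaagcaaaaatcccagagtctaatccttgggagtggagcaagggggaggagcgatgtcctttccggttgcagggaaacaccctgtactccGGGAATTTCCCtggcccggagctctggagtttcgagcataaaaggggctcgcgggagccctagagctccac
Cxcl10, chr5:92348890-92349139, minus strand: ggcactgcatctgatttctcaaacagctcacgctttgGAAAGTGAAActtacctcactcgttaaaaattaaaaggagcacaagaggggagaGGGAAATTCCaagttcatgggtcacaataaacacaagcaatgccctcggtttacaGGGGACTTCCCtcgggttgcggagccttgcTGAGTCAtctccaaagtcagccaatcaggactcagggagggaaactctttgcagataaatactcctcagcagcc
Il6, chr5:30012864-30013113, plus strand: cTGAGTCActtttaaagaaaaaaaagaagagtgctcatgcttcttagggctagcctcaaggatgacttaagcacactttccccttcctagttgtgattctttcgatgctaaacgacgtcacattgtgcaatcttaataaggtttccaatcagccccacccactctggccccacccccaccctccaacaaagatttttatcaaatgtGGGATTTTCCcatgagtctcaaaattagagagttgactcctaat
Il33, chr19:29924863-29925112, plus strand: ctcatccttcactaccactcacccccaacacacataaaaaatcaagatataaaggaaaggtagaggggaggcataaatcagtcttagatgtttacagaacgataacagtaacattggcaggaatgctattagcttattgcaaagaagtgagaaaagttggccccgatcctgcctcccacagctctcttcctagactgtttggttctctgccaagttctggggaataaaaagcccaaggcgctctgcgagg
Csf1, chr3:107760470-107760719, minus strand: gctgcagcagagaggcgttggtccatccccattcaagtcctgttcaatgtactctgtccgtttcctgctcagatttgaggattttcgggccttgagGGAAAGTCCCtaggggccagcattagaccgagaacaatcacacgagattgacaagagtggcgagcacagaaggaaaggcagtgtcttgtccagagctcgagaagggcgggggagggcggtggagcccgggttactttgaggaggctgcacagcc

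RefSeq windows were matched by symbol for 8 of the 10 genes. The Cxcl1 window holds 1 NF-kB stretch, at 71 to 61 bases before the start, which matches on both strands. In the Cxcl10 window there are 2 such stretches, at 104 to 94 (overlapping matches) and 159 to 150 bases, with an AP-1 site at 74 to 68 and an interferon core at 213 to 204 bases. The Il6 window has an NF-kB match at 44 to 35 bases and an AP-1 site at 249 to 243 bases. Csf1 has 1 NF-kB match, at 154 to 145 bases. Neither of the 2 annotated Il33 starts has any of these letters in its window, nor do the windows of Cxcl12 and Il18, and Cxcl14 has an interferon core alone, at 172 to 163 bases. Of 32851 mouse windows of this length, 7.25% hold the NF-kB consensus, 6.75% the AP-1 site and 2.98% the interferon core. A match of letters is no evidence of binding.

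Levels of the 10 ligands ran from very abundant to barely detected transcripts. In Ctrl the order of the levels was Cxcl14, Il18, Il33, Csf1, Cxcl12, Cxcl10, Cxcl1, Ccl2, Ccl5 and Il6. Cxcl14, at a mean of 169 FPKM (150.1 to 189.9 over the units), lay above 99.6% of protein-coding genes, and Csf1 at 16.0 ± 1.20 FPKM above 91.0%. Il18 (94.8 ± 25.5 FPKM) and Il33 (92.0 ± 12.5 FPKM) stood above 99.3% each and did not differ from one another in Ctrl beyond their spread. The same held for the neighbours Cxcl12 (4.19 ± 2.61 FPKM) and Cxcl10 (3.03 ± 2.94 FPKM), and for Cxcl10 and Cxcl1 (1.91 ± 1.56 FPKM). These SDs are between units, and within every unit Cxcl12 was above Cxcl1. In cKO the first 7 genes kept this order, but Il33 (56.2 ± 6.89 FPKM) lay well under Il18 (100.1 ± 4.72 FPKM), and Cxcl10 and Cxcl1 (1.08 ± 0.604 and 0.945 ± 0.453 FPKM) did not differ beyond their spread.

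**Figure D1:**
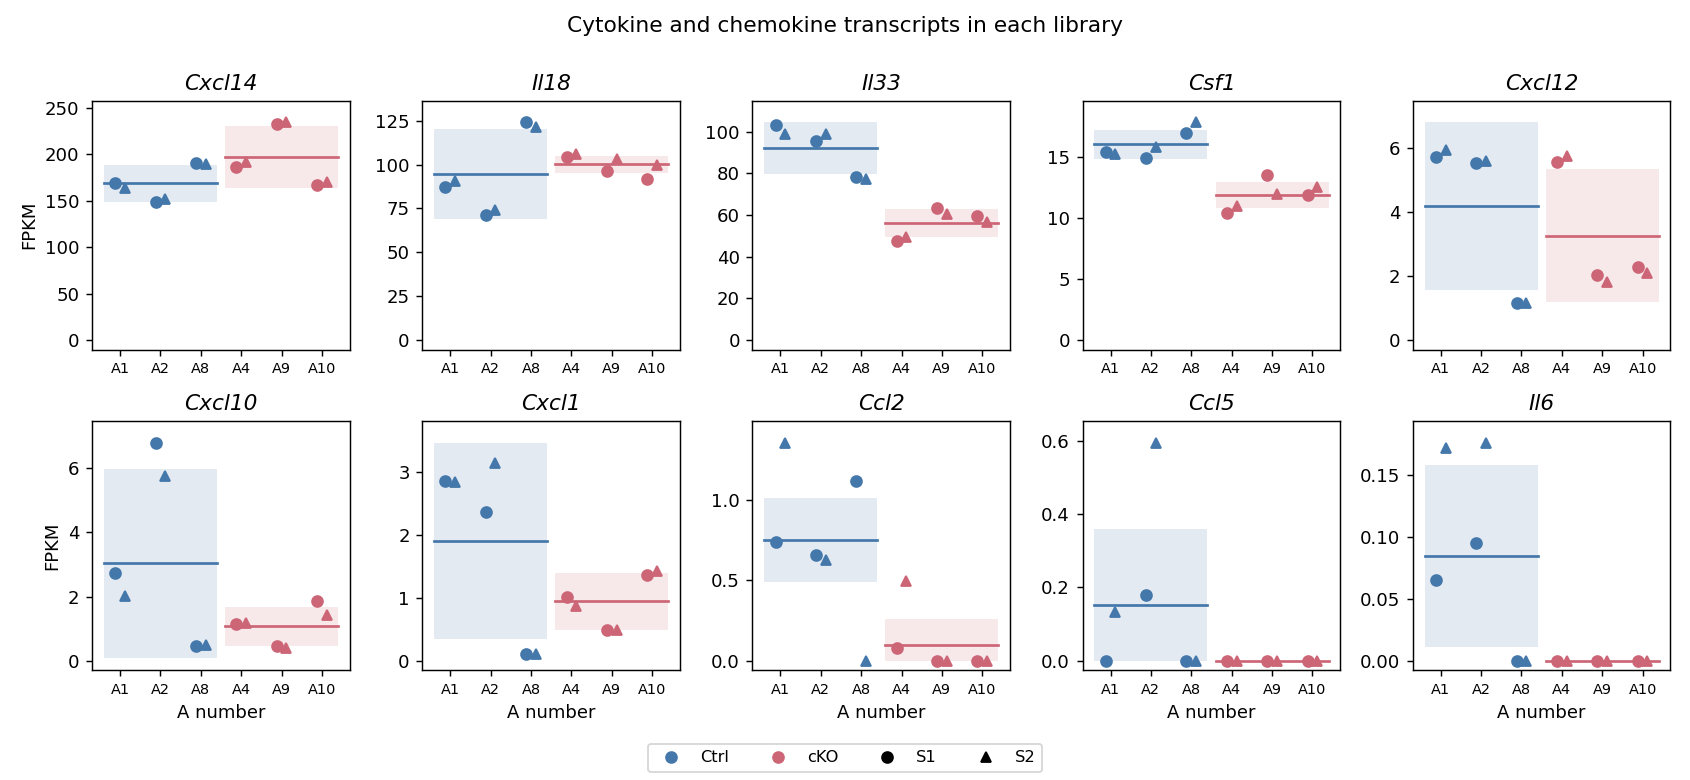
FPKM (vertical axes, linear, a separate scale for each gene) of the 10 genes in the 12 libraries by A number, Ctrl in blue and cKO in red, S1 as circles and S2 as triangles; lines are group means of the 3 units and shading 1 SD, drawn no lower than 0. The Il33 and Csf1 points of the groups do not overlap, A8 lies apart from A1 and A2 for Cxcl1, Cxcl10 and Cxcl12, and Ccl5 and Il6 are above 0 in A1 and A2 alone.

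Whether these ligands differ when TNFR2 is targeted in astrocytes was asked by setting cKO against Ctrl. Tests ran on log2(FPKM + 1), a scale that understates changes of low genes, for the 17540 genes with a mean of at least 1 FPKM. Of the 10 ligands 7 were tested, and 0 passed a limma adjusted p of 0.05, where 0.00% of all genes passed. At an unadjusted p under 0.05 there were 2, Il33 and Csf1, both lower in cKO; of all genes 7.69% reached that in either direction and 4.71% in the lower one. The same 2 genes had all cKO units below all Ctrl units, against 7.22% of all genes in that direction, and the 12 libraries were apart in the same way, against 4.36% lower and 7.10% in either direction. Without A8 the count at an unadjusted p under 0.05 was 5, with Cxcl1 and Cxcl10 lower and Il18 higher in cKO besides Il33 and Csf1, where 13.9% of all genes reached it; without A4 it was 1, Il33, against 5.26%. The median log2 difference of the 7 genes was -0.40 and that of all genes -0.01.

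Il33 encodes an alarmin that is stored in the nucleus and released from damaged cells, and in the brain it is made by astrocytes and oligodendrocytes. It lies on chromosome 19 (ENSMUSG00000024810, start 29902514, end 29938118 in the deposited table). Its level was 101 FPKM in A1, 97.2 in A2 and 77.8 in A8, and 48.5 in A4, 61.9 in A9 and 58.1 in A10. Every Ctrl library was above every cKO library, the nearest being 77.4 and 63.3 FPKM. The means were 92.0 ± 12.5 FPKM in Ctrl against 56.2 ± 6.89 FPKM in cKO, so cKO held 61.1% of the Ctrl level. The log2 difference was -0.70 (SE 0.15, 95% interval -1.05 to -0.35), with a limma p of 0.00231 and an adjusted p of 0.333. The exact permutation p was 0.1, the smallest that 3 against 3 allows (two-sided). When all 12 libraries entered with a random effect per A number, Il33 passed (limma adjusted p = 0.0368), as did 0.639% of all genes; with the replicate block added it did not (limma adjusted p = 0.0538).

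Markers of oligodendrocytes moved with Il33. All 12 listed genes were lower in cKO at an unadjusted p under 0.05 and none passed the threshold (lowest limma adjusted p 0.320). Their summed level was 1096 to 2354 FPKM in Ctrl and 313 to 753 FPKM in cKO, with none at 0. In 11 of the 12, all but Opalin, every cKO unit was below every Ctrl unit. Of all 17540 genes, 7.22% were apart in that way and 4.71% were lower at an unadjusted p under 0.05. Within Ctrl, A8 was lowest both in Il33 and in these markers, and within cKO A4 was lowest in both. The other units did not keep one order: Il33 was higher in A1 than in A2 and in A9 than in A10, while the marker sums were higher in A2 (2354 FPKM) than in A1 (2172 FPKM) and in A10 (753 FPKM) than in A9 (447 FPKM). The part of these cells in the Il33 difference was not tested. In bulk libraries fewer cells of a type and less RNA per cell cannot be told apart. The protein-coding genes most like Il33 over the 6 units were Cdr2l, Nkx6-2 and Mbd6 (Pearson r 0.998, 0.995 and 0.991 over 6 units, a description). Nkx6-2 is a transcription factor of the oligodendrocyte lineage, at 13.3 FPKM in Ctrl and 2.88 FPKM in cKO. Such genes are the highest of 11799 compared over only 6 units. For every tested ligand the closest gene had a Pearson r of 0.990 to 0.999.

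Csf1 encodes macrophage colony-stimulating factor, the ligand of CSF1R on microglia. It lies on chromosome 3 (ENSMUSG00000014599, start 107648364, end 107667785 in the deposited table). Units A1 and A2 both had 15.3 FPKM and A8 17.4, against 10.7 in A4, 12.7 in A9 and 12.2 in A10. The groups did not overlap, and the means were 16.0 ± 1.20 and 11.9 ± 1.07 FPKM. This gave a log2 difference of -0.41 (SE 0.13, 95% interval -0.72 to -0.09; limma adjusted p = 0.516; exact permutation p = 0.1). Within Ctrl, Csf1 was highest in A8, the unit with the lowest oligodendrocyte sum, and within cKO it was lowest in A4, again the unit with the lowest sum; the part of these cells in the Csf1 difference was not tested. Without A4 its unadjusted p no longer passed 0.05, while that of Il33 passed under every alternative run. The coding genes most like Csf1 were Rapgef5, Susd6 and Fam220a (Pearson r 0.990, 0.986 and 0.985 over 6 units).

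**Figure D2:**
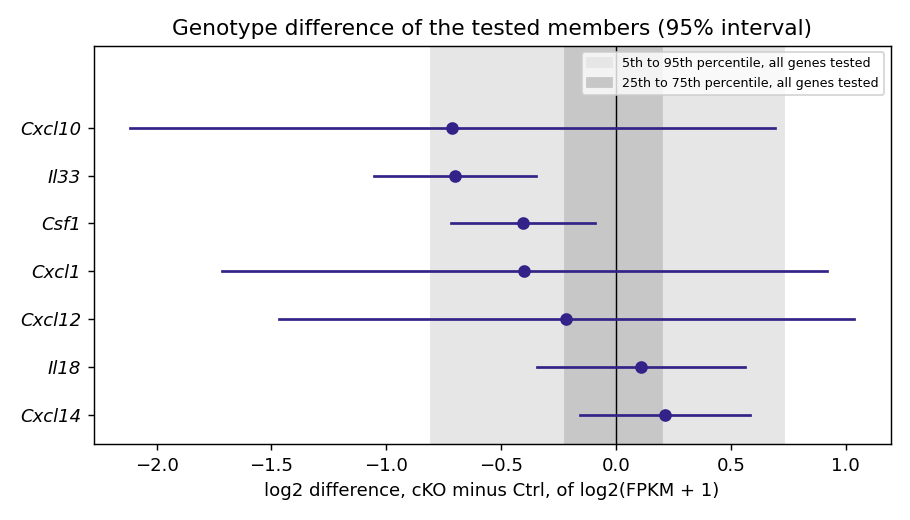
Difference between cKO and Ctrl on the log2(FPKM + 1) scale (horizontal axis) for the 7 tested genes, with 95% intervals as lines; grey bands show the 5th to 95th and the 25th to 75th percentile of all 17540 genes. The intervals of Il33 (-1.05 to -0.35) and Csf1 (-0.72 to -0.09) leave out 0, and those of Cxcl10, Cxcl1 and Cxcl12 are the widest.

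Cxcl14, a chemokine of resting epithelia and brain, was the most abundant of the 10. It lies on chromosome 13 (ENSMUSG00000021508, start 56436456, end 56444364 in the deposited table). Ctrl units had 166 (A1), 150.1 (A2) and 189.9 FPKM (A8), and cKO units 189 (A4), 233 (A9) and 168 FPKM (A10). These ranges overlap, and only A9 lies above every Ctrl unit. The fitted log2 difference came to 0.21 (SE 0.16, 95% interval -0.16 to 0.59; limma adjusted p = 0.849; exact permutation p = 0.3, n = 3 each). Summed astrocyte markers were likewise highest in A9 (8594 FPKM), and their lowest unit was A1 (6224 FPKM); their part in the Cxcl14 values was not tested. Without A9 the difference was 0.09. Grina, Cntfr and Omg were most like Cxcl14 (Pearson r 0.998, 0.991 and 0.991 over 6 units); Cntfr encodes the receptor of ciliary neurotrophic factor.

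Il18 encodes an interleukin made as a precursor that caspase-1 cuts. It lies on chromosome 9 (ENSMUSG00000039217, start 50466127, end 50493140 in the deposited table). The Ctrl units ran from 72.6 FPKM in A2 through 89.0 in A1 to 123 in A8, and the cKO units from 95.7 in A10 through 99.6 in A9 to 105 in A4. All cKO values lay inside the Ctrl range. Between the groups the log2 difference was 0.11 (SE 0.19, 95% interval -0.34 to 0.56; limma adjusted p = 0.953), and it was -0.06 without A2 and 0.31 without A8. Casp1, the gene of that caspase, was listed at 0 in every unit except A8 (0.953 FPKM) and A10 (0.386 FPKM). Pycard, the adaptor that recruits the caspase, was at 2.61 ± 1.12 FPKM in Ctrl against 1.87 ± 0.273 FPKM in cKO. Il18bp, the secreted inhibitor, was at 3.30 ± 1.16 and 3.44 ± 0.975 FPKM, and Il18r1 and Il18rap, the receptor chains, were listed at 0 in all 12 libraries. The coding genes most like Il18 were Cradd, Tmem94 and Faap100 (Pearson r 0.998, 0.998 and 0.997 over 6 units).

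Cxcl12 guides CXCR4-bearing cells and is made by vessels as well as astrocytes. It lies on chromosome 6 (ENSMUSG00000061353, start 117145496, end 117158328 in the deposited table). The units split across the groups: A1 (5.83 FPKM), A2 (5.56) and A4 (5.65) were high, and A8 (1.17), A9 (1.93) and A10 (2.19) were low. The log2 difference was -0.22 (SE 0.53, 95% interval -1.47 to 1.04; limma adjusted p = 0.969), and its sign turned when A1, A2 or A9 was left out (0.07, 0.04 and 0.003). Summed endothelial markers were high in the same units, at 85.2, 55.7 and 66.4 FPKM in A1, A2 and A4 and 8.49 to 11.4 FPKM in the rest. None of the 11 endothelial genes was at 0 in every library, and Itm2a and Cldn5 were the most abundant. Their part in the Cxcl12 levels was not tested. Fn1, Pamr1 and Adgrf5 were the coding genes most like Cxcl12 (Pearson r 0.991, 0.989 and 0.988 over 6 units). Adgrf5 is an endothelial receptor. As with Il33, these are the highest of 11799 genes compared and only a description. Of the receptors of CXCL12, Cxcr4 was at 9.90 ± 8.08 FPKM in Ctrl against 9.90 ± 3.97 FPKM in cKO, and the scavenger Ackr3 at 4.34 ± 1.93 and 3.80 ± 0.857 FPKM.

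The inducible ligands had the same 2 units on top. Cxcl1, which attracts neutrophils through CXCR2 (chromosome 5, ENSMUSG00000029380, start 91039100, end 91040974 in the deposited table), had 2.85 FPKM in A1, 2.76 in A2 and only 0.105 in A8. In cKO it had 0.946 in A4, 0.490 in A9 and 1.40 in A10. The Ctrl group thus held both the highest values and the lowest. On the log2 scale the difference was -0.40 (SE 0.55, 95% interval -1.72 to 0.92; limma adjusted p = 0.934; exact permutation p = 0.4, n = 3 each). It was -0.09 without A1, -0.11 without A2 and -0.06 with voom on recovered reads, but -0.99 without A8 (limma adjusted p = 0.254). The coding genes most like it were Me2, Ppp1r7 and Lamb1 (Pearson r 0.999, 0.995 and 0.993 over 6 units).

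Cxcl10 calls T cells through CXCR3 and is a classic interferon target. It lies on chromosome 5 as well (ENSMUSG00000034855, start 92494497, end 92496748 in the deposited table). A2 was far ahead with 6.25 FPKM, followed by A1 with 2.36, A10 with 1.63, A4 with 1.17, A8 with 0.480 and A9 with 0.434. The estimated log2 difference was -0.71 (SE 0.59, 95% interval -2.12 to 0.69; limma adjusted p = 0.869; exact permutation p = 0.3, n = 3 each). It ran from -0.15 without A2 to -1.29 without A8. Rbms2, Rpl26 and Slc24a5 were most like it (Pearson r 0.997, 0.992 and 0.990 over 6 units).

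Ccl2, Ccl5 and Il6 lay under the minimum of the test and are given by reads. Ccl2, which attracts monocytes through CCR2, lies on chromosome 11 (ENSMUSG00000035385, start 81926397, end 81928279 in the deposited table). It had 16 and 48 reads in S1 and S2 of A1, 13 and 20 in A2, and 25 and 0 in A8. In cKO it had 2 and 20 reads in A4 and 0 in both libraries of A9 and of A10. The unit values, 0.560 to 1.05 FPKM in Ctrl and 0 to 0.289 FPKM in cKO, did not overlap (exact permutation p = 0.1, n = 3 each), while the libraries did, because of A8 S2. Over the 27060 genes with a mean of at least 0.1 FPKM, Ccl2 had a log2 difference of -0.64 (SE 0.24, limma adjusted p = 0.740) and an unadjusted p under 0.05. For comparison, 3.48% of those genes were lower at an unadjusted p under 0.05, 5.79% had their cKO units all below the Ctrl units, and 5.58% all above.

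Ccl5, a chemokine that attracts T cells, on the same chromosome (ENSMUSG00000035042, start 83416604, end 83421344 in the deposited table), had 4 reads in A1 S2, 3 in A2 S1 and 16 in A2 S2. It was listed at 0 in the other 9 libraries, among them all 6 of cKO. Il6, the acute-phase cytokine on chromosome 5 (ENSMUSG00000025746, start 30218112, end 30224979 in the deposited table), had 3 and 13 reads in A1 and 4 and 12 in A2, and was listed at 0 in A8 and in every cKO library. The limit that a count of 0 allows, 3 reads, is 0.0350 to 0.0714 FPKM for Il6 and 0.0885 to 0.181 FPKM for Ccl5. A difference from A1 and A2 thus rests on 32 and 23 reads in all. If both reads of a pair were counted, these limits are too low and the reads stand for fewer fragments.

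Dissociation response genes, which sorting itself can switch on, were highest in the same A1 and A2. Their 16 genes summed to 1183 FPKM in A1 and 1321 in A2, against 364 in A8, 637 in A4, 269 in A9 and 602 in A10; Fos led them, and none was at 0. All 16 had log2 differences below 0, 1 of them at an unadjusted p under 0.05 (Egr2), and 0 passed the threshold; of all 17540 genes 8918 were below 0 and 4.71% were lower at that p. Sums of other lists were highest in A1 and A2 too: oligodendrocyte markers (2172 and 2354 FPKM, at most 1096 in the other units), neuronal markers (28.3 and 22.9 FPKM, at most 10.3) and oligodendrocyte precursor markers (9.38 and 11.9 FPKM, at most 7.90). The part of the dissociation response or of these cells in the Cxcl1, Cxcl10, Ccl2, Ccl5 and Il6 levels was not tested. Microglia markers did not share this order: 14 genes summed to 31.0 to 40.4 FPKM in Ctrl and 39.7 to 55.9 FPKM in cKO, and Sall1 was among the most abundant; P2ry12, at 2.44 ± 1.49 FPKM in Ctrl against 6.96 ± 2.14 FPKM in cKO, had an unadjusted p under 0.05 (limma adjusted p = 0.433). Of 13 markers of border macrophages and blood leukocytes 7 were at 0 in every library, and the sum was at most 0.870 FPKM in any unit.

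**Figure D3:**
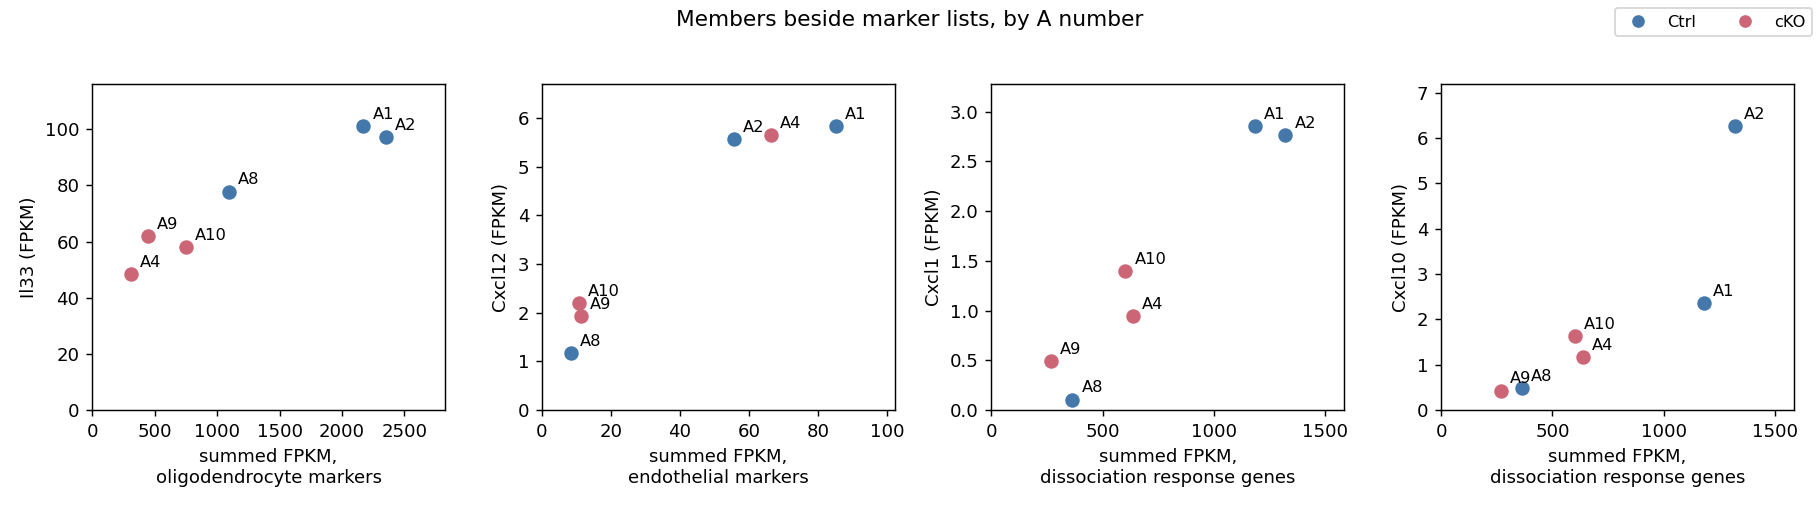
Level of Il33, Cxcl12, Cxcl1 and Cxcl10 (vertical axes, FPKM) against the summed FPKM of a marker list (horizontal axes) in the 6 units, labelled by A number, Ctrl in blue and cKO in red. A1 and A2 are high on both axes for Il33, Cxcl1 and Cxcl10, and A4 joins them for Cxcl12 and the endothelial list.

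Of the other chemokines 5 of 30 were tested and 0 passed the threshold in either direction, with a median log2 difference of 0.17; 14 were listed at 0 in every library. Cx3cl1, the ligand that neurons and glia present to microglia, was the most abundant of them at 3.07 ± 1.94 FPKM in Ctrl against 3.59 ± 0.889 FPKM in cKO. Ccl27a, Ccl25 and Ccl28 had log2 differences of 0.56, -0.03 and -0.26. Among the other cytokines 10 of 28 in the table were tested, 0 passed and the median was -0.04. Mif, a macrophage factor, and Tgfb2, a member of the TGF-beta family, led at 26.0 ± 6.28 and 11.4 ± 2.84 FPKM in Ctrl and 20.6 ± 5.40 and 11.7 ± 1.27 FPKM in cKO. Il34, the second ligand of CSF1R, was at 4.33 ± 2.68 and 3.48 ± 0.722 FPKM. Lif, a relative of IL-6, had 0.432 to 1.20 FPKM in the Ctrl units and 2.08 to 2.66 FPKM in the cKO units, which do not overlap (log2 difference 0.80, SE 0.30, limma adjusted p = 0.607); 5.76% of all genes had cKO units all above Ctrl units. Il15 had a log2 difference of 0.92 (SE 0.44, limma adjusted p = 0.703).

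Of 18 genes of receptors for the 10 ligands, 8 were listed at 0 in every library (Ccr1, Ccr2, Ccr3, Cxcr2, Cxcr3, Il18r1, Il18rap and Il1rl1, the IL-33 receptor). In the tested 4, 0 passed the threshold and the median log2 difference was -0.06. Il6st, the signalling chain shared by receptors of the IL-6 family, was at 20.7 ± 1.46 FPKM in Ctrl against 20.3 ± 1.51 FPKM in cKO. Csf1r stayed under the minimum of the test, at 0.385 ± 0.241 and 0.819 ± 0.364 FPKM. Il1rap, the accessory chain of the IL-1 and IL-33 receptors, had 7.30 FPKM in A1, 7.76 in A2 and 3.46 in A8, and 1.42 in A4, 2.47 in A9 and 3.51 in A10. Its A8 and A10 values overlap (log2 difference -1.03, SE 0.35, limma adjusted p = 0.539), and as in the oligodendrocyte sums A2 and A1 were highest and A4 lowest; their part in the Il1rap values was not tested.

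Among processing enzymes and inhibitors 5 of 18 were tested, 0 passed and the median was -0.19. Adam10 and Adam17, which shed membrane-bound ligands and receptors, were at 25.3 ± 4.74 and 7.95 ± 1.25 FPKM in Ctrl and 21.9 ± 1.49 and 6.81 ± 0.404 FPKM in cKO. Socs3, the feedback inhibitor of IL-6 signalling, ran from 1.79 FPKM in A8 to 33.4 in A1 within Ctrl and from 3.03 to 10.4 in cKO. Of 21 regulators of cytokine transcripts 17 were tested and 0 passed. All 17 had negative log2 differences, with a median of -0.46, where 8918 of all 17540 genes were below 0. These genes share the same units, so their signs are not independent. Their levels summed to 798 FPKM in A1, 934 in A2 and 318 in A8, and to 476 in A4, 259 in A9 and 434 in A10. Ctrl unit A8 thus lay below A4 and A10 of cKO. On the dissociation list as well are 4 of the 21 (Atf3, Fos, Jun and Zfp36). Fos, Jun and Zfp36l1 were the most abundant, at 339 ± 195, 111 ± 42.9 and 78.8 ± 29.9 FPKM in Ctrl against 162 ± 65.6, 71.9 ± 34.1 and 67.0 ± 4.40 FPKM in cKO. Nfkbia, the NF-kB inhibitor that NF-kB itself induces, was at 30.9 ± 13.2 FPKM in Ctrl against 18.2 ± 3.94 FPKM in cKO (log2 difference -0.67, SE 0.32, limma adjusted p = 0.710). Elavl1, which encodes the RNA-stabilising protein HuR, had 8.03 to 8.78 FPKM in the Ctrl units and 5.68 to 6.22 FPKM in the cKO units (log2 difference -0.46, SE 0.14, limma adjusted p = 0.456). Of all genes tested, 7.22% had cKO units all below Ctrl units in this way.

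**Figure D4:**
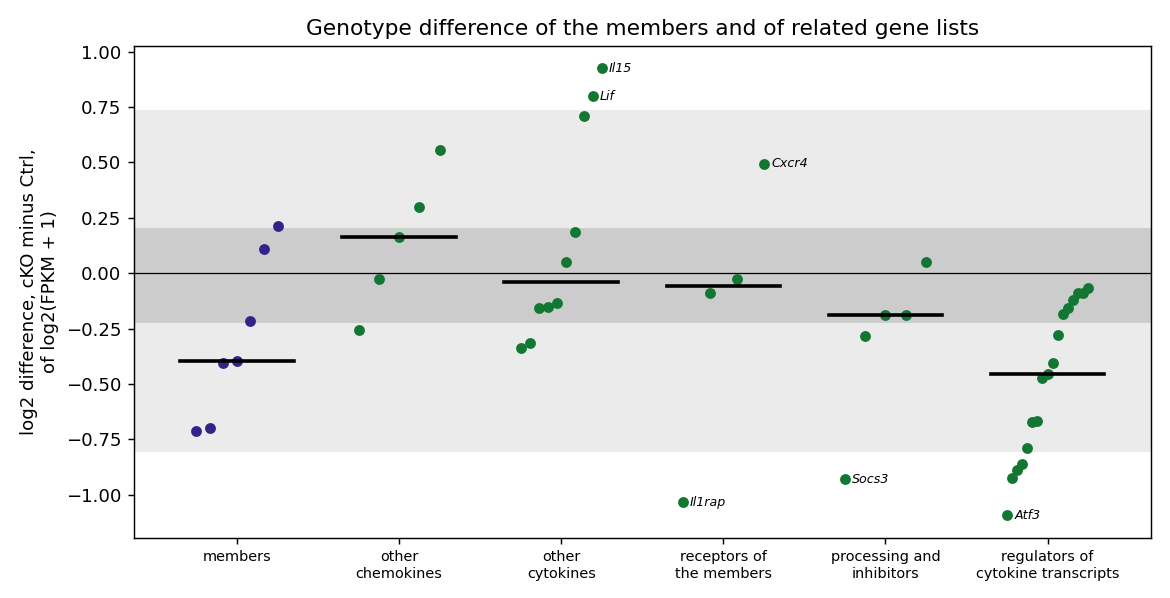
Difference between cKO and Ctrl on the log2(FPKM + 1) scale (vertical axis) for the tested genes among the 10 ligands and in 5 related lists; each point is a gene, black bars are list medians and grey bands the 5th to 95th and 25th to 75th percentiles of all genes tested. The medians run from -0.46 for the regulators to 0.17 for the other chemokines, and 0 genes shown passed the threshold.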

How the data were processed

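RNA sequencing libraries from 6 Ctrl and 6 cKO samples were compared. Per the labels' protocols, SMART-Seq V4 served for low-input cDNA and the reads are paired. Per the submitters' processing notes, FastQC, STAR, featureCounts and DESeq2 were used, with builds mm10 and GRCm38; versions and counting options are not given in the sources used here. The deposited FPKM values were scaled by the authors to gene length and to 1000000 assigned fragments, per the file headers and the sums of FPKM times length. Only 2.80% of 52000 genes had the start and end of GENCODE M21 (GRCm38), so gene positions are printed as deposited and their build is not settled. They cannot be set against the positions of the promoter windows, which are on GRCm38.p6.

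Reads were recovered from the steps of low FPKM values; 82.8% to 86.3% of values above 0 came out whole (within 0.02), and the rest as fractions. Most whole values were even, so a pair may count as 2 reads. Floors cover counting error only. Rows sharing a symbol were summed. log2(FPKM + 1) was averaged over S1 and S2, whose Pearson r across genes was 0.980 to 0.984. The genotype test was limma 3.58.1 under R 4.3.3 (eBayes with trend, two-sided, Benjamini-Hochberg over all genes tested); p-values measure the spread between these units. On simulated data with a log2 difference of 1 and of 2, 26.5% and 80.0% of 200 changed genes among 17540 were recovered. The changed genes were drawn only from those with a mean log2(FPKM + 1) above 2. Lower genes, Cxcl1 and Cxcl10 among them, are not covered by these shares. Single values used two-sided exact permutation tests over 20 arrangements (Python 3.11.15, scipy 1.17.1).

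The genes, lists and tests were chosen with earlier results of these data known. The rule names the 10 ligands, Tnfrsf1b, Tnfrsf1a and Tnf; of each related list the 3 most abundant genes and the 2 with the smallest p; the 3 coding genes most correlated with each tested ligand; and the 2 most abundant genes of each marker list, of which some are not reported here. Receptors at 0, Casp1, Pycard, Il18bp, Csf1r, Ackr3, Opalin, Egr2 and P2ry12 complete their lists or pathways and were partly named after their values were seen. Markers of precursor, mural, fibroblast, ependymal and neuronal cells were measured as well and had 0 genes past the threshold.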

Additional observations from a re-analysis of the deposited data

How the results depend on the processing

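For the 7 tested ligands 18 alternatives each were run: another pseudocount, other minimum levels, scalings and averaging, single S numbers, robust eBayes, voom on recovered reads, models of the 12 libraries and each A number left out. The count of 0 genes past the threshold became 112 with a random effect per A number and 80 with the replicate block added, and ran from 0 to 1 when A numbers were left out. Of the ligands, 1 passed with the random effect (Il33) and 0 with the replicate block. The replicate numbers give no pairing across groups, since they are the S numbers within a unit. Ctrl and cKO libraries of one number had deviations correlated at -0.07 to 0.14. The labels do not define the A numbers, so whether units of both groups shared a batch is not known and was not tested. Signs turned for Cxcl12 without A1 (0.07), A2 (0.04) or A9 (0.003) and for Il18 without A2 (-0.06); the cause was not tested. With A numbers left out Cxcl12 ran from -0.756 to 0.0695 and Il18 from -0.0621 to 0.312. Likewise Cxcl1 ran from -0.99 to -0.09, Cxcl10 from -1.29 to -0.15 and Cxcl14 from 0.09 to 0.32. Over all alternatives Il33 ran from -0.82 to -0.60 and Csf1 from -0.50 to -0.33. Ccl2, Ccl5 and Il6 had at most 48 reads in a library, so their values rest on few reads.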

Other observations

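Cxcl17, Nlrc4 and Il11, named after their values were seen, were the genes of the related lists that lay under the minimum of the test and whose groups did not overlap, Cxcl17 and Nlrc4 with all cKO units higher and Il11 with all lower. Over the 27060 genes with a mean of at least 0.1 FPKM, 5.58% had all cKO units higher and 5.79% all lower. Il11 lay just under that mean. The 5 related lists hold 30, 28, 18, 18 and 21 genes, of which 5, 10, 4, 5 and 17 were tested, so 3 such genes are no result about the lists. Cxcl17, a mucosal chemokine, was at 0 in A1 and A8 and 0.123 FPKM in A2, and at 0.182 FPKM in A4, 2.17 in A9 and 1.01 in A10. It had 4 reads in Ctrl, all in A2, and 127 in cKO. A2 and A4, the nearest units, thus both lay near the limit of 3 reads, and their order rests on few reads. Il11, a relative of IL-6, was at 0.0561 FPKM in A1, 0.246 in A2 and 0.288 in A8, with 54 reads in all. It was listed at 0 in every cKO library. Nlrc4, an inflammasome sensor upstream of IL-18 processing, was at 0.172 FPKM in A1 and 0 in A2 and A8. It was at 0.709, 0.737 and 0.666 FPKM in A4, A9 and A10, with 40 reads in Ctrl and 503 in cKO. For units that do not overlap, 3 against 3, the exact permutation p is always 0.1. Since the 3 genes were named for that, the p-value adds no support.

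Ccl2 was the ligand whose S1 and S2 libraries differed most, by up to 1.08 on the log2(FPKM + 1) scale. In A8 it had 25 reads in S1 and 0 in the deeper S2, and in A4 2 reads in S1 and 20 in S2, whereas Cxcl14 differed between S1 and S2 by at most 0.04.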
